A study of Mus musculus with 12 samples.

Results

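Interferon-stimulated genes, the genes that cells switch on when interferon reaches them, were followed in mouse kidney after busulfan, after alginate oligosaccharides (AOS), and after both. The group holds 39 genes, taken by symbol from a table of 19261, and each had 1 row. The table gave 12 libraries of kidney RNA, 3 in each of 4 groups. Control animals received neither agent. AOS, fragments of the brown-seaweed polysaccharide alginate, was given at 10 mg/kg over 5 weeks. Busulfan, an alkylating agent used to clear bone marrow, was given a single time at 40 mg/kg. The group given both received busulfan a single time and AOS at 10 mg/kg over 5 weeks afterwards. The strain is written as IRC in all 12 labels, the tissue as cells in the sample labels and as kidney in the protocol, and neither sex nor age is stated there. The labels number 3 samples per group without saying whether 1 animal gave each of them, and p-values therefore reflect the spread of these samples alone, which may be technical.

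Type I interferons bind the receptor Ifnar1/Ifnar2, and the kinases Jak1 and Tyk2 then start a signal that leads to the factor ISGF3, of which Stat2 and Irf9 are subunits and which binds the interferon-stimulated response element (ISRE) in promoters. Interferon gamma acts through another receptor and another promoter element, the gamma-activated site (GAS). The products sense foreign RNA and DNA, degrade RNA, halt translation, block virus entry and release, or attack the vacuoles of intracellular microbes. In kidney, tubule, endothelial and resident immune cells can all mount this response.

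The promoters were searched for the letters of both elements. The RefSeq promoter table (build GRCm38.p6) held 28 of the 39 genes. The ISRE core was searched as GAAA, any 2 bases and GAAA again, on both strands, in the 250 bases before each start site. It was present in 14 of the 28 (50%) against 936 of 27025 genes in the whole table (3.46%). The GAS, searched as TTCNNNGAA, which reads the same on both strands, was present in 6 of the 28 (21.4%) against 8.13% of all genes, and 4 of the 28 held both patterns. The patterns can share bases, since each holds the letters GAA or TTC. All 5 of the interferon-inducible GTPases with a promoter in the table held the ISRE core, as did 5 of 11 antiviral effectors, 2 of 4 oligoadenylate synthetases and 2 of 4 regulators, while none of the 3 sensors and not the 1 ligase did. A match is a description of letters and not a measured binding site.

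The following 160-base stretches end at the base before the start site and are shown because they carry 1, 2 or 3 ISRE cores, set in capitals, in genes of 3 different roles. Ifitm3, whose stretch holds no core, is shown for contrast although it was among the most abundant members.
Ifit1 (chr19:34640729-34640888, plus strand): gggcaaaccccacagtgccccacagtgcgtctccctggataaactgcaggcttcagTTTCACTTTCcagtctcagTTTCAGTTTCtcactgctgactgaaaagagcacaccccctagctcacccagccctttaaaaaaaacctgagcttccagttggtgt
Isg15 (chr4:156200819-156200978, minus strand): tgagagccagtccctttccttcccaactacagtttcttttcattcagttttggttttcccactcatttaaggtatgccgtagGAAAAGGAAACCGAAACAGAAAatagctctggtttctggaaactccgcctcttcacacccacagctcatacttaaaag
Bst2 (chr8:71537473-71537632, minus strand): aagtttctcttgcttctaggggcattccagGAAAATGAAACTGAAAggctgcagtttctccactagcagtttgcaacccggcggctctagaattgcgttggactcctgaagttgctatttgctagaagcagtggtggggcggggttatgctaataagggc
Gbp7 (chr3:142530176-142530335, plus strand): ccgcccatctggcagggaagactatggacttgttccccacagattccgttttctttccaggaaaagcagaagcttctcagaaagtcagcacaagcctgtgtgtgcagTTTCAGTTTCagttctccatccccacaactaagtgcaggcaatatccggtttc
Irgm1 (chr11:48871421-48871580, minus strand): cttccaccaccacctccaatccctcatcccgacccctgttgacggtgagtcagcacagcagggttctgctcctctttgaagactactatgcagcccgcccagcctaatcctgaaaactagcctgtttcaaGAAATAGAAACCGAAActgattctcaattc
Ifitm3 (chr7:141010745-141010904, minus strand): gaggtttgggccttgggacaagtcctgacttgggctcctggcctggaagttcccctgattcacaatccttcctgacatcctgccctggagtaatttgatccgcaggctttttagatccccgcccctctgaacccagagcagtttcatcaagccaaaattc
In Isg15 the 3 cores overlap in a single run, and the core nearest the start begins at position -66, with -1 the base before the start. The nearest cores of Ifit1, Bst2, Gbp7 and Irgm1 begin at positions -85, -124, -53 and -24.

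Library totals were 13875942 to 15329347 estimated reads, and levels below are CPM, counts brought to a common library size by trimmed means of M values. Cdkn1a, the p53 target p21, was at 3.21 to 5.75 CPM in the 6 libraries without busulfan and at 9.87 to 36.8 CPM in the 6 with it. Transcripts of 2 other tissues stood out. In busulfan replicate 3 a list of 12 adrenal markers, all with reads, reached a summed 10516 CPM, and elsewhere it reached 3.76 to 9.15 CPM, with 2 to 8 of them at 0 reads. The 15 hepatocyte markers summed to 19203 CPM in busulfan plus AOS replicate 3, where all 15 had reads, and to 82.4 to 402 CPM elsewhere. Proximal tubule markers were abundant in every library, at 45041 to 70539 CPM. The medians and counts below that rest on these 2 libraries are given with and without them.

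Of the 39 genes 38 had enough reads to be tested, and these 38 are counted below. The exception was Oas3, an oligoadenylate synthetase, with 0 to 5.92 reads in control, 4 to 16 with AOS, 4.28 to 24 with busulfan and 4.99 to 7.66 with both, and its 2 highest values were in AOS replicate 1 and busulfan replicate 3. The genes were expressed at modest levels. Their median mean level was 11.4 CPM against 21.2 CPM over the 14428 genes tested. Per unit of transcript length, in FPKM, the most abundant were Ifitm3 at 57.2, Ifi27 at 44.01, Irgm1 at 27.3, Oasl2 at 22.4 and Bst2 at 18.9, and Oas3 was the lowest at 0.117.

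The clearest feature of the data was that the genes moved together from library to library, across the borders of the groups. Each library was described by the median, over the 38 genes, of the log2 ratio of its level to the control mean. This median was -0.13, 0.14 and -0.03 in the control libraries, 0.74, 0.34 and -0.03 with AOS, -0.04, 0.36 and 1.02 with busulfan, and -0.14, 0.25 and 0.74 with both. Each of the 3 treated groups therefore held 1 library near the control level, 1 intermediate and 1 high. Over all genes tested the same median lay between -0.03 and 0.00 in every library. The scaling holds that median near 0, so it is a reference point and not a result. Summed over the 39 genes without the scaling, the level was 443, 486 and 418 CPM in control, 725, 581 and 483 with AOS, 477, 593 and 1197 with busulfan, and 437, 536 and 809 with both. In these unscaled sums the lowest library of each treated group lay inside the control range, from 418 to 486 CPM. The scaling factor was 0.958 in control replicate 3 and 1.02 in busulfan plus AOS replicate 1. Scaling divides by it and so raises the first sum and lowers the second, and the placing of the second may not hold on scaled levels.

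**Figure D1:**
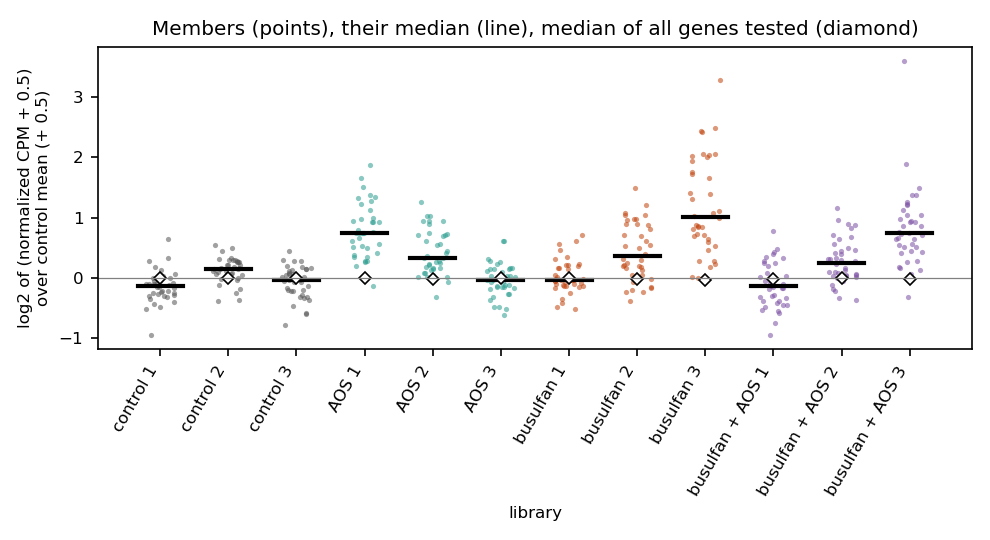
Log2 ratio of each library's level to the control mean (0.5 CPM added to both) for the 38 genes tested, by library. Points are genes, bars their median and diamonds the median of all 14428 genes tested; busulfan replicate 3 (median 1.02), AOS replicate 1 (0.74) and busulfan plus AOS replicate 3 (0.74) stand above the rest.

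Busulfan replicate 3 held the highest of the 12 values for 26 of the 38 genes (19.9% of all genes tested), busulfan plus AOS replicate 3 for 6 (10.1%) and AOS replicate 1 for 5 (3.78%). Within its own group, AOS replicate 1 was highest for 36 of 38, busulfan replicate 3 for 37 and busulfan plus AOS replicate 3 for 33, where all genes tested gave 31.6%, 37.8% and 32.3%. AOS replicate 3, busulfan replicate 1 and busulfan plus AOS replicate 1 were lowest in their groups for 32, 29 and 32, where all genes tested gave 37.8%, 31.7% and 37.7%. The control libraries showed less order, with replicate 2 highest for 21 of 38. The within-group SD on the log2 scale had a median of 0.51 over the 38 genes and of 0.19 over all genes tested, which were more abundant. The share of a gene's variance that lay between the groups had a median of 27.5%, against 30.0% for all genes. Busulfan replicate 1, with Cdkn1a at 25.5 CPM, was at the control level of the interferon-stimulated genes.

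**Figure D2:**
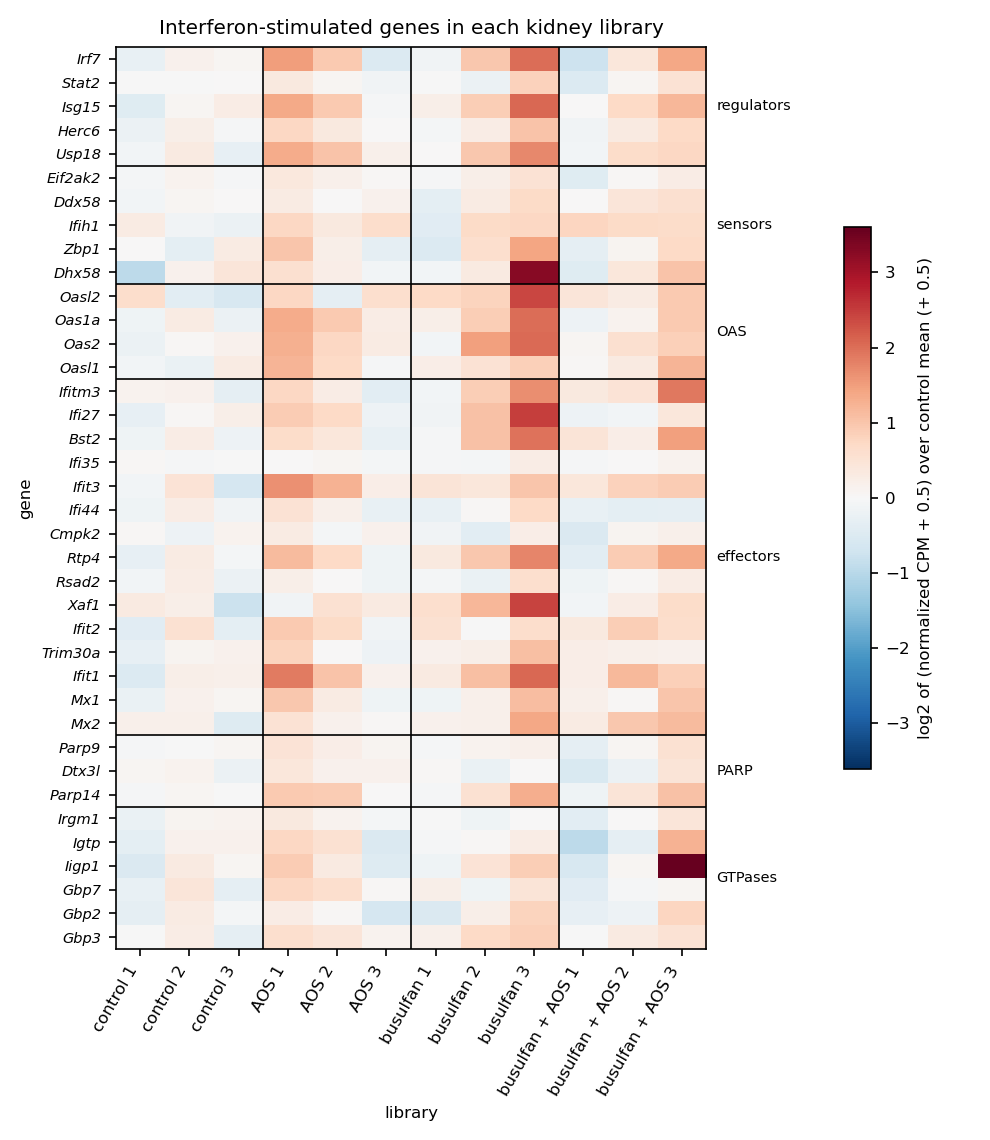
Log2 ratio of each library's level to the control mean (0.5 CPM added to both; colour) for the 38 genes tested, grouped by role, in the 12 libraries. The columns of busulfan replicate 3, AOS replicate 1 and busulfan plus AOS replicate 3 are the darkest red. The last of these holds the highest value of 3 of the 6 GTPases.

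Markers of cells known for interferon or its response were measured in the same libraries. The 12 macrophage markers summed to 155 to 190 CPM in control, 157 to 194 with AOS, 149 to 264 with busulfan and 182 to 194 with both, the 264 in busulfan replicate 3. The 10 T cell markers summed to 2.22 to 14.1 CPM and the 8 NK cell markers to 0.882 to 2.36 CPM over all libraries. Of the 7 markers listed for plasmacytoid dendritic cells, strong producers of type I interferon, the unscaled sum was 1.90 to 5.20 CPM in 11 libraries and 74.9 CPM in busulfan replicate 3. Ly6d made most of the latter. Its scaled level there was 66.7 CPM, which is not on the scale of the sum and leaves no remainder to be read. In that library Siglech, the defining marker of these cells, had 2 reads and Cd300c had 0. The 11 endothelial markers summed to 325 to 463 CPM in 11 libraries and to 638 CPM in busulfan replicate 3. The 12 adipose markers summed to 132 to 183 CPM in control, to 118 to 258 with AOS, to 127, 961 and 1766 with busulfan and to 128, 204 and 405 with both. The 7 B cell markers summed to 10.9, 30.9 and 12.7 CPM in control, 52.3, 47.2 and 30.2 with AOS, 20.5, 23.95 and 36.4 with busulfan and 63.4, 39.4 and 33.4 with both. Within the first 3 groups the library with the highest B cell sum was also the one with the highest median of the interferon-stimulated genes, and in the group given both it was the one with the lowest. For the 8 dendritic cell markers the sum was highest in busulfan replicate 3, at 15.7 CPM, with 8.29 to 13.2 CPM elsewhere, and for the 8 neutrophil markers it was 4.03 to 8.44 CPM over all. The part of these cells and of the adrenal and liver RNA in the levels of the interferon-stimulated genes was not tested. In bulk RNA, fewer cells of a type and less RNA per cell cannot be told apart.

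Among the regulators and the ubiquitin-like system, Isg15 (gene 100038882, chr4:156199424-156200818), a ubiquitin-like protein attached to other proteins, was at 0.872, 1.45 and 1.75 CPM in control, 4.296, 3.08 and 1.31 with AOS, 1.66, 2.94 and 7.21 with busulfan and 1.38, 2.55 and 3.79 with both. Irf7 (gene 54123, chr7:141263183-141266499), the transcription factor that amplifies type I interferon production, was at 4.65, 6.43 and 6.04 CPM in control, 17.2, 11.5 and 3.94 with AOS, 5.18, 11.7 and 24.7 with busulfan and 3.18, 7.71 and 15.7 with both. Usp18 (gene 24110, chr6:121245906-121270917), which removes Isg15 and restrains the receptor, was at 1.24, 1.81 and 1.02 CPM in control, 4.16, 3.29 and 1.59 with AOS, 1.38, 3.15 and 5.65 with busulfan and 1.25, 2.41 and 2.62 with both. In all 3 genes AOS replicates 1 and 2 and replicates 2 and 3 of both busulfan groups exceeded every control library, and the remaining treated libraries did not. Stat2, a subunit of ISGF3, spanned 13.5 to 34.5 CPM, and Herc6, the Isg15 ligase of mice, 6.18 to 15.4 CPM. All 5 regulators were highest in busulfan replicate 3.

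The oligoadenylate synthetases make short adenylate chains when they meet double-stranded RNA. Oas1a (gene 246730, chr5:120896256-120907544) was at 1.82, 2.64 and 1.74 CPM in control, 6.03, 4.47 and 2.600 with AOS, 2.46, 4.205 and 9.85 with busulfan and 1.78, 2.31 and 4.39 with both. Oas2 (gene 246728, chr5:120730333-120749886) was at 2.61, 3.18 and 3.49 CPM in control, 8.17, 5.55 and 3.87 with AOS, 2.86, 9.58 and 14.2 with busulfan and 3.305, 4.81 and 6.03 with both. Every AOS value of Oas2 was above every control value, and the low library of the busulfan group was inside the control range. Oasl2 (gene 23962, chr5:114896926-114912245), a relative from the same family, was at 76.6, 37.6 and 32.5 CPM in control, 82.8, 39.3 and 75.2 with AOS, 80.4, 86.2 and 263 with busulfan and 66.3, 59.9 and 94.2 with both. For Oasl2 the 3 busulfan libraries were above the 3 control libraries by a narrow margin in 2 of them, 80.4 and 86.2 against a highest control value of 76.6 CPM. Oasl1 spanned 0.939 to 3.52 CPM, with AOS replicate 1 the highest. The estimated counts of Oas1a were whole numbers in 1 library and those of Oasl2 in none, so the authors' counting shared some of their reads with related transcripts and these levels are uncertain.

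Among the sensors, Ifih1 (gene 71586, chr2:62595618-62646255), which recognises long double-stranded RNA, was at 9.52, 7.08 and 6.62 CPM in control, 13.2, 9.93 and 12.2 with AOS, 5.66, 12.8 and 13.2 with busulfan and 13.6, 12.7 and 12.4 with both. Its AOS libraries lay above its control libraries, and with both treatments its 3 values were within 12.4 to 13.6 CPM. Dhx58 (gene 80861, chr11:100694884-100704271), a related RNA helicase that tunes Ifih1 and Ddx58, was at 0.436, 1.52 and 1.96 CPM in control, 2.18, 1.64 and 1.18 with AOS, 1.17, 1.75 and 17.01 with busulfan and 0.831, 1.91 and 3.203 with both. The value of 17.0 CPM in busulfan replicate 3 stood apart from the range of 0.436 to 3.20 CPM in the other 11 libraries. Eif2ak2 (gene 19106, chr17:78850504-78882572), the RNA-activated kinase that halts translation, was at 21.4, 24.6 and 22.05 CPM in control, 29.8, 25.95 and 23.4 with AOS, 22.02, 26.2 and 33 with busulfan and 16.5, 23.3 and 27.6 with both, and the 4 groups overlapped. Ddx58, the sensor of RNA ends, spanned 17.8 to 37.3 CPM and Zbp1, a sensor of Z-form nucleic acid, 0.691 to 3.91 CPM, both highest in busulfan replicate 3. The counts of Eif2ak2 were whole in 5 libraries, and a transcribed pseudogene overlaps it by 2041 bases.

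Among the antiviral effectors, Ifit1 (gene 15957, chr19:34640889-34650009), which binds foreign RNA ends, was at 1.02, 1.95 and 1.89 CPM in control, 7.26, 3.83 and 1.87 with AOS, 2.14, 3.99 and 8.35 with busulfan and 2.01, 4.25 and 3.35 with both. Ifit3 (gene 15959, chr19:34583119-34588982), its partner, was at 9.22, 14.2 and 6.39 CPM in control, 32.2, 24.5 and 11.7 with AOS, 13.9, 13.3 and 20.3 with busulfan and 13.3, 17.9 and 19.3 with both. Ifi44 (gene 99899, chr3:151730922-151749910), a cytoplasmic protein of this response, was at 12.6, 17.1 and 12.9 CPM in control, 20.6, 16.02 and 11.8 with AOS, 11.8, 14.8 and 23.6 with busulfan and 11.6, 10.97 and 11.4 with both. Ifit3 had its 2 highest values in AOS replicates 1 and 2, and Ifit1 its 2 highest in busulfan replicate 3 and AOS replicate 1. Ifi44 went another way, in that all 3 of its values with both treatments, 10.97 to 11.63 CPM, were below every other library. The counts of Ifit3 were whole in no library, and the gene model of Ifit1 overlaps that of its paralog Ifit1bl1, so both levels are uncertain.

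Ifitm3 (gene 66141, chr7:141009590-141010744), a membrane protein that blocks virus entry, was at 20.1, 20.2 and 14.4 CPM in control, 30.8, 21.9 and 13.97 with AOS, 16.9, 34.4 and 58.9 with busulfan and 23.2, 25.97 and 68.7 with both. Bst2 (gene 69550, chr8:71534255-71537472), which tethers budding virus to the cell, was at 6.54, 8.89 and 6.404 CPM in control, 11.8, 9.86 and 5.95 with AOS, 7.11, 15.6 and 29.4 with busulfan and 10.3, 8.63 and 21.3 with both. For both genes the highest libraries were replicate 3 of the busulfan group and replicate 3 of the group given both, and the low libraries of each group lay near control. Ifi27 (gene 52668, chr12:103434189-103440245), a small membrane protein, was at 19.1, 24.3 and 27.2 CPM in control, 45.1, 39.03 and 20.8 with AOS, 21.5, 48.96 and 134 with busulfan and 20.7, 21.8 and 31.7 with both. Xaf1 (gene 327959, chr11:72301461-72313733), which binds the apoptosis inhibitor Xiap, was at 4.36, 3.97 and 1.75 CPM in control, 3.03, 5.14 and 4.29 with AOS, 5.39, 8.39 and 20.3 with busulfan and 3.12, 4.18 and 5.61 with both. The libraries of busulfan replicates 2 and 3 carried the 2 highest values of both Ifi27 and Xaf1, whereas AOS replicate 1, with its high Ifit1 and Isg15, had Xaf1 at 3.03 CPM, inside the control range. The Ifi27 gene model overlaps that of its paralog Ifi27l2a. Of the other 8 effectors tested, Ifi35 was the steadiest of the 38 genes, at 24.0 to 30.7 CPM with counts whole in no library, while Mx2, of the dynamin-like Mx family and annotated in RefSeq, like Mx1, as a transcribed pseudogene, ranged from 0 reads in control replicate 3 (a count of 0 allows up to 3 reads, 0.209 CPM) to 1.32 CPM in busulfan replicate 3.

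The role called ligases here holds Dtx3l, a ubiquitin ligase, and the PARP family members Parp9 and Parp14. Parp9 and Dtx3l act as a pair in DNA repair. Parp9 (gene 80285, chr16:35938470-35972621) was at 28.02, 28.4 and 30.2 CPM in control, 40.9, 34.1 and 30.8 with AOS, 28.2, 31.6 and 33.03 with busulfan and 22.9, 30.1 and 42.4 with both. Dtx3l (gene 209200, chr16:35926515-35939027) was at 19.4, 20.1 and 16.04 CPM in control, 24.7, 20.5 and 20.6 with AOS, 19.1, 15.6 and 18.8 with busulfan and 12.5, 15.9 and 25.5 with both. These 2 neighbours, whose gene models share 558 bases and whose counts were whole in 1 library each, departed from most of the genes: both were highest in busulfan plus AOS replicate 3 and lay near control in busulfan replicate 3. Parp14, a related mono-ADP-ribosyltransferase, spanned 10.7 to 30.6 CPM and was highest in busulfan replicate 3.

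The interferon-inducible GTPases coat vacuoles that hold microbes. Irgm1 (gene 15944, chr11:48865245-48871420), a regulator of this family, was at 45.9, 58.1 and 59.98 CPM in control, 69.3, 59.8 and 52.04 with AOS, 54, 49.3 and 54.96 with busulfan and 42.1, 54.8 and 73.7 with both. Gbp7 (gene 229900, chr3:142530336-142550151), a guanylate-binding protein, was at 13.9, 22.9 and 13.2 CPM in control, 28.2, 25.7 and 17.2 with AOS, 19.5, 14.8 and 23.2 with busulfan and 12.4, 16.1 and 17.5 with both. Iigp1 (gene 60440), an effector of the family, was at 6.03, 11.3 and 9.24 CPM in control, 17.2, 11.3 and 6.23 with AOS, 7.94, 12.7 and 16.7 with busulfan and 5.75, 9.27 and 113 with both. Iigp1 reached 113 CPM in busulfan plus AOS replicate 3 and no more than 17.2 CPM in any other library. Igtp, also highest there at 38.0 CPM, spanned 7.93 to 26.5 CPM elsewhere. In that library 3 of the 6 GTPases and 2 of the 3 ligases had their highest value, against 0 of 5 regulators, 0 of 5 sensors, 0 of 4 oligoadenylate synthetases and 1 of 15 effectors. Busulfan replicate 3 held the highest value of 2 of 6 GTPases, 5 of 5 regulators, 4 of 5 sensors, 3 of 4 oligoadenylate synthetases and 11 of 15 effectors. The counts of highest values thus differed by role between the 2 libraries, a description with no test, since each is 1 library. The median log2 ratio to control of the GTPases did not set them apart. It was 0.637 in busulfan plus AOS replicate 3, 0.635 in busulfan replicate 3 and 0.674 in AOS replicate 1. The counts of Irgm1 were whole in 1 library and those of Igtp in 4.

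**Figure D3:**
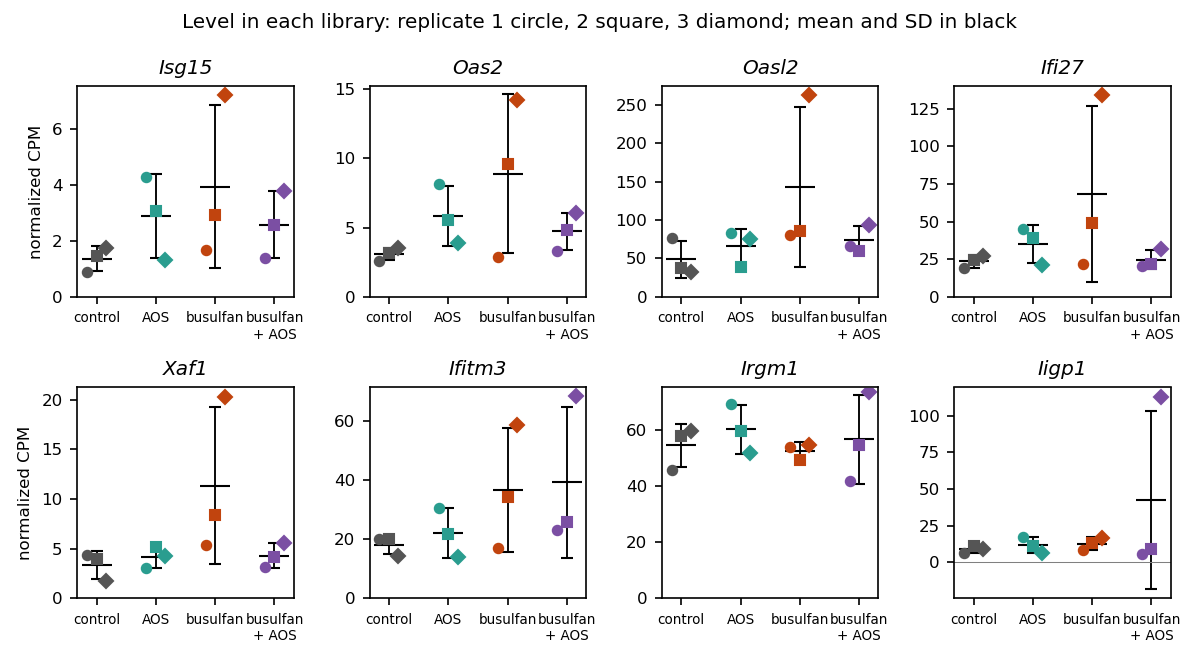
Normalized CPM in each library for 8 genes by group, with symbols for replicates 1 (circle), 2 (square) and 3 (diamond) and black bars for the mean and SD of 3. Busulfan replicate 3 is far above its group for Oasl2 (263 CPM), Ifi27 (134 CPM) and Xaf1 (20.3 CPM), and busulfan plus AOS replicate 3 is far above its group for Iigp1 (113 CPM).

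The effect of busulfan alone was read from busulfan against control. Of the 38 genes 35 were measured higher and 3 lower after busulfan, with a median log2 fold change of 0.66 where the median of all genes tested was 0.00. The oligoadenylate synthetases (median 1.46, 4 of 4 higher) and the regulators (1.28, 5 of 5) had the largest differences. The sensors stood at 0.45, with 5 of 5 higher, and the effectors at 0.76, with 14 of 15. The GTPases (0.24, 5 of 6) and ligases (0.10, 2 of 3) had the smallest. By edgeR's quasi-likelihood test none of them passed the adjusted threshold of 0.05, where 0.0416% of all genes did, and the lowest adjusted p was 0.416. DESeq2 and limma on log2(FPKM + 1) also called 0.

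At an unadjusted p under 0.05 there were 12 of the 38, all higher, against 10.1% of all genes (7.01% in the higher direction), and DESeq2 gave 14 and limma 8. Xaf1 measured 1.76 ± 0.50 (adjusted p 0.416), Oasl2 1.55 ± 0.50 (adjusted p 0.416), Oas2 1.52 ± 0.50 (adjusted p 0.416) and Ifi27 1.53 ± 0.54 (adjusted p 0.420), each a log2 fold change with its SE and edgeR's Benjamini-Hochberg adjusted p. Isg15 measured 1.54 ± 0.61, Oas1a 1.41 ± 0.53, Usp18 1.32 ± 0.53, Bst2 1.26 ± 0.49 and Ifit1 1.57 ± 0.59. Dhx58 had the largest estimate at 2.34 ± 0.96, from the single library at 17.0 CPM. At the other end, Irgm1 measured -0.05 ± 0.19, Dtx3l -0.06 ± 0.22, Parp9 0.10 ± 0.19 and Ifi44 0.24 ± 0.26. The groups did not overlap for 4 genes, all higher (5.72% of all genes): Ifit1, Oasl2, Xaf1 and Rtp4, the last named after its values were seen.

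These values rested on busulfan replicate 3. Without it the oligoadenylate synthetases stood at 0.72, the regulators at 0.56, the effectors at 0.45, the sensors at 0.16, the ligases at 0.05 and the GTPases at 0.02. The median of all 38 was then 0.24, 30 of 38 genes were still measured higher, and 1 had an unadjusted p under 0.05 (4.94% of all genes), Xaf1 at 1.03. Oasl2 then measured 0.77, Oas2 1.00, Ifi27 0.58 and Dhx58 0.16. With the hepatocyte and the adrenal library both left out, the median was 0.22 and again 1 gene was under 0.05 (5.15% of all genes). Leaving out control replicate 1 or 3 lowered the 12 to 3 or 7, where all genes gave 7.80% and 6.34%. Without busulfan replicate 1, the library near control, the median was 0.83 and 1 gene, Oas2, passed the adjusted threshold at 1.94. In that fit 195 of all genes tested passed it. With single libraries left out, the lowest and the highest median thus came from replicates 3 and 1 of the busulfan group.

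**Figure D4:**
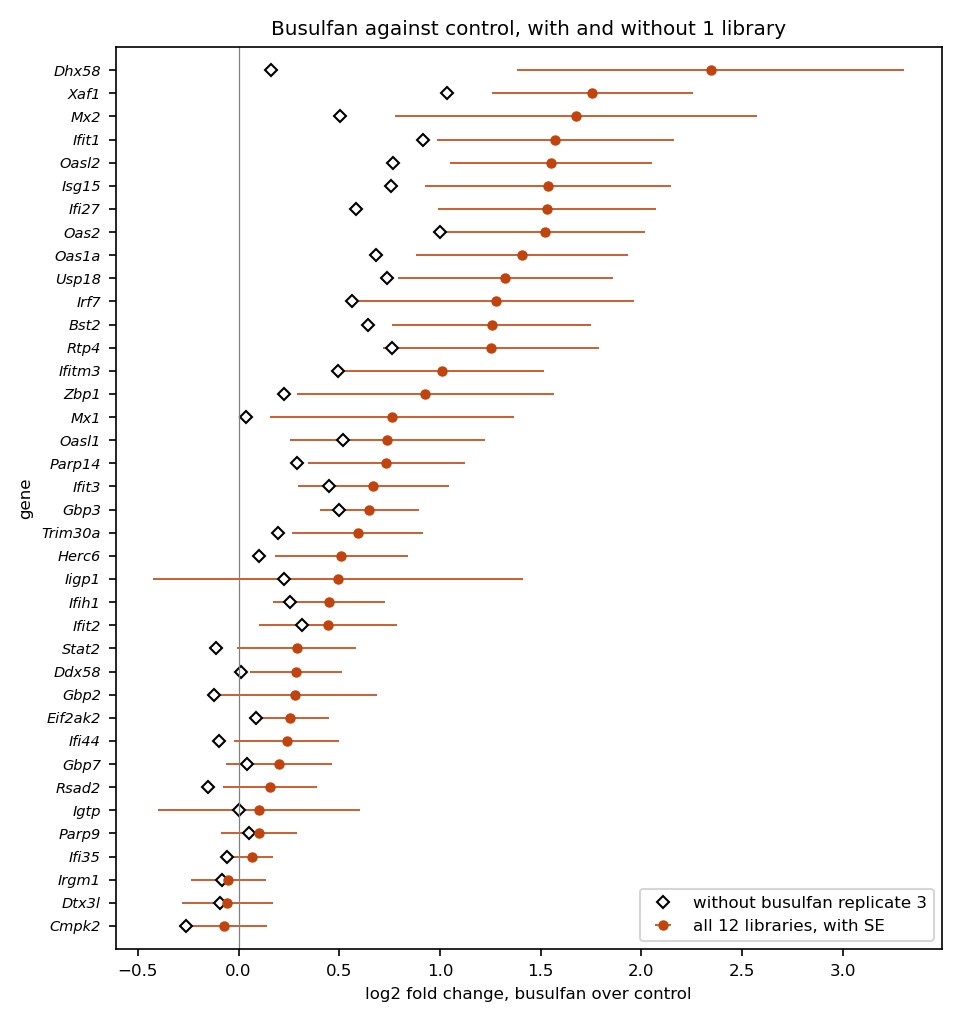
Log2 fold change of busulfan over control for each of the 38 genes, with all 12 libraries (filled points, bars give the SE) and without busulfan replicate 3 (open diamonds). The median moved from 0.66 to 0.24, and the estimate of Dhx58 from 2.34 to 0.16.

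Busulfan plus AOS against AOS asks the same of the drug where AOS was given too, and shares no library with the comparison above. Here 15 genes were measured higher and 23 lower, with a median of -0.08 against 0.00 for all genes. All 5 regulators and 3 of 4 oligoadenylate synthetases were measured lower, at medians of -0.17 and -0.23. No gene passed in edgeR's test (0.0693% of all genes; lowest adjusted p 0.518), nor in DESeq2 or limma. The 1 gene at an unadjusted p under 0.05 (9.16% of all genes, 3.96% in the lower direction) was Gbp7, at -0.63 ± 0.26 (adjusted p 0.518), and DESeq2 gave 2 and limma 1. Iigp1 measured 1.88 ± 0.92 (adjusted p 0.581), Ifi44 -0.51 ± 0.26 (adjusted p 0.606) and Ifitm3 0.82 ± 0.50 (adjusted p 0.660). The groups did not overlap for 1 gene, Ifi44, lower with both (8.72% of all genes in that direction).

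The direction depended on single libraries. Without busulfan plus AOS replicate 3 the median was -0.41, with the regulators at -0.56 and the GTPases at -0.47, 4 genes had an unadjusted p under 0.05 (6.39% of all genes), and Iigp1 turned from 1.88 to -0.63. Without AOS replicate 1 the median was 0.16, with 26 of 38 genes higher and none at an unadjusted p under 0.05 (5.85% of all genes), and without busulfan plus AOS replicate 1 it was 0.10. Without AOS replicate 3 it was -0.26.

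Averaged over AOS status, 6 libraries with busulfan were set against 6 without it. The mean difference was positive for 32 genes and negative for 6, with a median of 0.29. Bst2 measured 0.90 ± 0.35 (adjusted p 0.369), Xaf1 0.90 ± 0.35 (adjusted p 0.370), Ifitm3 0.92 ± 0.36 (adjusted p 0.373) and Oasl2 0.86 ± 0.35 (adjusted p 0.389). With Mx2 at 1.42 ± 0.61, named after its values were seen, these were the 5 at an unadjusted p under 0.05, all higher (12.1% of all genes, 7.59% in that direction), and DESeq2 gave 6 and limma 2. None passed the adjusted threshold in edgeR (0.194% of all genes; lowest adjusted p 0.369), DESeq2 or limma, and no gene's 6 busulfan libraries were apart from the 6 others (0.762% of all genes higher and 0.222% lower). Without busulfan replicate 3 the median was 0.07 and 0 genes were under 0.05 (8.72% of all genes), without busulfan plus AOS replicate 3 it was 0.14 with 1 (10.5%), and without both it was -0.09 with 1 (8.75%). Without busulfan replicate 1 there were 11 under 0.05 (19.5%), without control replicate 3 none (8.81%), and without AOS replicates 2 or 3 there were 3 or 2 (8.75% and 11.2%).

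The effect of AOS alone was read from AOS against control. Of the 38 genes 37 were measured higher and only Gbp2 lower, with a median log2 fold change of 0.43 against 0.00 over all genes, of which 51.0% were measured higher. The oligoadenylate synthetases and the regulators again had the largest medians, 0.93 each, with 9 of 9 higher. Ifit3 measured 1.20 ± 0.38 (adjusted p 1.000) and Ifit1 1.41 ± 0.59 (adjusted p 1.000), the 2 genes at an unadjusted p under 0.05, against 3.59% of all genes and 1.62% in the higher direction. Ifih1 measured 0.60 ± 0.28 and Usp18 1.15 ± 0.53. No gene passed in edgeR's test, where 0% of all genes did and the lowest adjusted p of the 38 was 1.00, and DESeq2 and limma also called 0, with 4 and 2 at an unadjusted p under 0.05. The groups did not overlap for 4 genes, all higher (6.2% of all genes): Oas2, Ifih1, Parp9 and Dtx3l.

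AOS replicate 1 carried much of this, and without it the median was 0.19, with 30 of 38 genes higher and 1 under 0.05 (2.97% of all genes). The oligoadenylate synthetases then stood at 0.57 and the regulators at 0.44. Ifit3 then measured 0.87 and Ifit1 0.82. Without AOS replicate 3, the library at the control level, 9 genes were under 0.05 (2.98% of all genes) and the median was 0.61. Fitting the 2 groups alone also gave 9 (6.90%), and leaving out control replicate 3 gave 1 (2.48%). The summed hepatocyte markers were 402 CPM in AOS replicate 1 and 129 and 132 CPM in the other two, and the adipose markers 258 against 118 and 167 CPM. The B cell markers summed to 52.3 CPM there and to 47.2 and 30.2 CPM in the other two, against 10.9 to 30.9 CPM in control. Their part in the result was not tested.

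Busulfan plus AOS against busulfan asks whether AOS after the drug altered these genes. With both treatments 25 genes were measured lower and 13 higher, with a median of -0.19. The regulators were all 5 measured lower, at a median of -0.62, and the oligoadenylate synthetases stood at -0.94. Ifi27 measured -1.46 ± 0.54 (adjusted p 0.508) and Xaf1 -1.40 ± 0.49 (adjusted p 0.484), the 2 genes at an unadjusted p under 0.05 (8.69% of all genes, 4.12% in the lower direction). Ifi44 measured -0.56 ± 0.26 (adjusted p 0.582) and was the 1 gene whose groups did not overlap (4.19% of all genes lower). Oasl2 measured -0.96 ± 0.49. No gene passed in edgeR's test (0% of all genes; lowest adjusted p 0.484), DESeq2 or limma, with 4 and 1 at an unadjusted p under 0.05 in the last pair. Without busulfan replicate 3 the median turned to 0.15, 28 of 38 genes were measured higher with both treatments, and 0 were under 0.05 (10.2% of all genes). The regulators then stood at 0.16 and the oligoadenylate synthetases at -0.21. Without busulfan plus AOS replicate 3 the median was -0.56 with 4 (6.28%), without busulfan replicate 1 it was -0.38 with 8 (12.6%), without busulfan replicate 2 it was -0.29 with 4 (8.97%), and without busulfan plus AOS replicate 1 it was 0.01 with 1 (14.99%).

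The interaction tests whether the difference left by busulfan was the same with and without AOS. A negative value means that the signed log2 difference left by busulfan was lower with AOS than without. It was negative for 37 of the 38 genes, with a median of -0.73 against -0.01 over all genes. Of these 37, 14 were measured higher after busulfan in both settings and less so with AOS, 20 were higher without AOS and lower with it, and 3 were lower in both. For 6 of the 37 the difference was larger in size with AOS. The exception was Iigp1 at 1.38 ± 1.29. Of the 38, 8 had an unadjusted p under 0.05, all negative, against 5.89% of all genes and 2.92% in that direction. Ifi27 measured -2.04 ± 0.76 (adjusted p 0.793), Oas1a -2.03 ± 0.74 (adjusted p 0.793), Oas2 -1.83 ± 0.70 (adjusted p 0.793), Usp18 -1.85 ± 0.74 (adjusted p 0.793) and Ifit1 -2.00 ± 0.82 (adjusted p 0.793). No gene passed the adjusted threshold in edgeR (0% of all genes; lowest adjusted p 0.793), DESeq2 or limma, and the last pair gave 9 and 4 at an unadjusted p under 0.05. Control and AOS libraries enter this contrast as well, so it is not independent of the comparisons above.

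The size of the interaction depended on single libraries, high and low ones. Without busulfan replicate 3 its median was -0.26 and 0 genes were under 0.05 (5.67% of all genes). Without AOS replicate 1 the median was -0.43 with 1 gene (4.51%), and without busulfan plus AOS replicate 3 it was -1.11 with 16 (4.58%). With the hepatocyte and the adrenal library both left out it was -0.60 with 4 (5.28%). The count was 3 and 4 without control replicates 1 and 3 (4.02% and 4.55%), 5 without AOS replicate 2 (3.99%), 13 without busulfan replicate 1 (9.39%), and 2 and 5 without busulfan plus AOS replicates 1 and 2 (10.9% and 4.96%).

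The rest of the interferon pathway was read from a list of 95 further genes, of which 81 were in the table and 79 tested. None passed in any of the 6 comparisons in edgeR's test. In busulfan against control 62 were measured higher and 17 lower (median 0.22), with 10 at an unadjusted p under 0.05, 12.7% where all genes gave 10.1%. Without busulfan replicate 3 it was 45 and 34 (0.03), with 3 (3.80% against 4.94%). In AOS against control 54 were higher and 25 lower (0.16), with 2 under 0.05 (2.53% against 3.59%), and 11 with the adrenal and the hepatocyte library left out of the fit (13.9% against 5.65%). In busulfan plus AOS against AOS it was 48 and 31 (0.08), with 2 (2.53% against 9.16%), and without busulfan plus AOS replicate 3 it was 37 and 42 (-0.01). Averaged over AOS status, 63 were higher and 16 lower (0.17), with 6 (7.59% against 12.1%), and 41 and 38 (0.01) without both libraries. For busulfan plus AOS against busulfan it was 32 and 47 (-0.04), with 3 (3.80% against 8.69%), and 58 and 21 (0.21) without busulfan replicate 3. For the interaction it was 31 and 48 (-0.17), with 4 (5.06% against 5.89%), and 45 and 34 (0.06) without busulfan replicate 3. The shares of the list in the full fits were thus near or below those of all genes. The median ratio to control was 0.53 in busulfan replicate 3, which held the highest value of 35 of the 79 (19.9% of all genes), and 0.39 in busulfan plus AOS replicate 3, which held 17 (10.1%). It was -0.07 to 0.18 in the other 10 libraries.

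The receptor chains differed in how steady they were. Ifnar1 spanned 46.4 to 53.6 CPM and Ifngr2 23.3 to 29.2, and the kinase Jak1 spanned 185 to 236. Ifnar2, the partner of Ifnar1, was at 41.3 and 41.2 CPM in replicates 3 of the busulfan group and of the group given both, and at 27.2 to 37.4 CPM in the other 10 libraries. Il10rb, a chain of the receptors for type III interferon and interleukin 10, was at 62.97 CPM in busulfan replicate 3 and at 31.3 to 41.3 CPM elsewhere, and Ifnlr1, its partner for type III interferon, spanned 1.59 to 5.23 CPM. Irf9, the DNA-binding subunit of ISGF3, was at 11.6, 9.44 and 6.08 CPM in control, 18.3, 15.02 and 11.5 with AOS, 10.5, 16.3 and 24.9 with busulfan and 6.43, 11.6 and 17.5 with both. Its highest value was in busulfan replicate 3, and AOS replicate 1 led its group. The counts of Ifnar2, Il10rb and Irf9 were whole in no library, so these levels are uncertain. The gene for interferon gamma, Ifng, had reads in 5 libraries, none above 0.218 CPM. The type I and type III interferon genes on the list had no row under their symbols, so their levels could not be read. By lowest p in the averaged comparison, Helz2, a helicase coactivator, measured 0.66 ± 0.22, Socs3, a feedback inhibitor of Jak kinases, 0.69 ± 0.27, Ifi27l2a 1.62 ± 0.64 and Parp11 -0.33 ± 0.10, at edgeR adjusted p of 0.317 to 0.379.

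Among the 9 other GTPases of the list, 6 had their highest value in busulfan plus AOS replicate 3, the library with Iigp1 at 113 CPM. Gbp6 was at 8.72, 14 and 12.3 CPM in control, 24.3, 19.3 and 7.78 with AOS, 8.33, 17.6 and 22.3 with busulfan and 7.497, 6.84 and 44.3 with both. Irgm2 was at 16.3, 18.5 and 14.9 CPM in control, 30.7, 25.5 and 12.5 with AOS, 15.9, 15.4 and 25.5 with busulfan and 7.96, 16.6 and 37.9 with both. The counts of Gbp6 were whole in no library and those of Irgm2 in 6, so these levels are uncertain. Cxcl9, a chemokine induced by interferon gamma, was at 6.84 CPM in that library and at 0.622 to 1.95 CPM in the other 11. Irf1, the transcription factor of the gamma response, was at 16.5 CPM there and at 7.68 to 11.2 CPM elsewhere. Hepatocyte transcripts were high in the same library, and their part in these values was not tested.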

How the data were processed

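RNA of 12 kidney samples was sequenced, and groups and replicate numbers were taken from the titles. The authors deposited expected counts per gene, which are estimated counts with decimals and not scaled, and beside them FPKM values. The build is mm10 per the submitters' processing notes; an aligner or counting tool is not given in the sources used here. Positions and promoters came from RefSeq, build GRCm38.p6.

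The counts, rounded to whole numbers, entered edgeR 4.0.16 (R 4.3.3). Its expression filter kept 14428 genes, and 1 quasi-likelihood fit with a mean per group (8 residual degrees of freedom, biological coefficient of variation 26.8%) gave all 6 contrasts. P-values are two-sided, with Benjamini-Hochberg adjustment over all genes and 0.05 as the threshold. Levels of single genes are CPM scaled by trimmed means of M values, and library ratios add 0.5 CPM. Summed levels are CPM without that scaling. Named genes were the 4 of lowest p in each comparison, the most abundant (FPKM) and the lowest-p gene of each role, and the 5 with the widest range. The genes and lists were chosen with earlier results of these data known. Alternatives were DESeq2 1.42.0, limma 3.58.1 on log2(FPKM + 1), other scaling and filters, a replicate block, fewer groups, and libraries left out. The fit was tested on simulated data. Within groups no libraries were duplicates: the most alike pair differed by 5.36 times the sampling variance per gene. Pairs from different groups were not checked for duplication.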

Additional observations from a re-analysis of the deposited data

How the results depend on the processing

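Of the medians recomputed under the alternatives, 91 stayed within the replicate spread of 0.40 and 3 moved further. That spread is larger than several of the medians, so a median could change sign and still count as staying. For busulfan plus AOS against busulfan it went from -0.19 to 0.15 without busulfan replicate 3. Averaged over AOS status it went from 0.29 to -0.09 without the hepatocyte and the adrenal library. The 91 therefore do not show stability. The number of called genes stayed at 0 in 93 fits and moved in 1, and counts so near 0 say nothing about stability. Counts at an unadjusted p under 0.05 stayed within 1.5 times in 43 fits and moved further in 51, and counts of called genes over the whole table in 68 and 26. Of the single fold changes, 369 kept their direction and their side of the threshold, 1 passed it and 2 reversed. The median for busulfan against control moved from 0.66 to 0.22 with the hepatocyte and the adrenal library left out, and ranged from 0.24 to 0.83 with single libraries left out, where the number of called genes ranged from 0 to 1. That 1 gene was Oas2, at 1.94 without busulfan replicate 1, a fit in which 195 of all genes tested were called. The interaction median ranged from -1.11 to -0.26 with single libraries left out. Iigp1 in busulfan plus AOS against AOS reversed from 1.88 to -0.63 without busulfan plus AOS replicate 3, and likewise without both libraries, and reached 2.40 with single libraries left out. A group left with 2 libraries shares the spread of the others.

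Same-numbered libraries of different groups correlated at -0.26 to 0.16 in their deviations over all genes tested. Such correlations cannot decide whether same-numbered libraries shared a batch or handling, which was not tested. In both busulfan groups the median of the interferon-stimulated genes rose from replicate 1 to replicate 3, and with AOS alone it fell. With the replicate as a block, the median was 0.65 for busulfan against control, 0 genes were called in each comparison, and 8, 0, 1, 2, 2 and 5 had an unadjusted p under 0.05 in the order of the report. A filter at 5 CPM in 3 libraries gave 7 in busulfan against control. Limma on FPKM gave smaller medians, 0.39 for busulfan against control and -0.45 for the interaction, as the added 1 shrinks low values. Over all genes, edgeR called 6, 10, 28, 0, 0 and 0, and DESeq2 124, 89, 223, 10, 24 and 11; busulfan against control gave 2 to 195 with single libraries left out. The within-group SD of the genes was 0.51 on the log2 scale at a median level of 11.4 CPM, and the parts of depth and of spread in these limits were not separated.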

Other observations

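Ifi27l2a, the paralog beside Ifi27, ranged widely. It was at 3.49, 3.25 and 2.77 CPM in control, 13.7, 6.300 and 1.87 with AOS, 2.76, 43.2 and 58.5 with busulfan and 3.25, 7.502 and 8.01 with both. Its 2 highest values, 43.2 and 58.5 CPM, fell in busulfan replicates 2 and 3, where the adipose markers summed to 961 and 1766 CPM. It was chosen by the rule on lowest p, and the part of adipose tissue in it was not tested.

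The library pattern was also described apart for genes with and without the ISRE core. In AOS replicate 1 the median log2 ratio to control was 0.74 over 13 genes tested with a core and 0.63 over 14 without. In busulfan replicate 3 it was 0.85 and 0.73, in busulfan plus AOS replicate 3 it was 0.76 and 0.65, and in AOS replicate 2 it was 0.44 and 0.22. The order was the other way in busulfan replicate 2 (0.22 with a core and 0.28 without), in busulfan plus AOS replicates 1 (-0.15 and -0.07) and 2 (0.13 and 0.30), and in AOS replicate 3 (-0.07 and 0.03). These are descriptions with no test. A response element farther away, or spelled otherwise, is not seen by this search.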
